A study of Morone chrysops with 54 samples.

Results

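Protein folding and protein breakdown were followed in the liver of white bass through 33 contigs of a transcriptome of 20914 contigs. The 33 were taken by name from the study's 5 lists of differentially expressed genes (DEGs), 1 list for each test diet against the control diet. A contig was kept when its name held 1 of a set of words such as heat shock, DnaJ, disulfide-isomerase, proteasome, ubiquitin or cathepsin. The contig of heat shock protein 70 is in none of the 5 lists and was added because it was also measured by RT-qPCR. By role there are 5 contigs of protein folding in the endoplasmic reticulum (ER), 5 of the heat shock and co-chaperone families, 7 of the proteasome and its partners, 2 of ubiquitin and its removal, 12 E3 ubiquitin ligases and 2 cathepsins.

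Juvenile white bass (Morone chrysops) of about 40 g were fed 1 of 6 diets for 60 days, and 9 livers per diet were sequenced, 1 library per fish. Diet 1 was the standard fish meal control, with more soybean meal than fish meal by weight, and soybean meal was part of all 6 diets. Diet 2 held little fish meal and much soy, and Diet 3 little fish meal with poultry meal. Diet 4 had poultry meal and no fish meal, and Diet 5 took all of its protein from plants. Diet 6 had no fish meal either and tested a commercial protein ingredient. All fish were juveniles of the same species and the same tissue was taken, and 3 fish were taken from each of 3 tanks per diet. The deposited values are estimated counts per contig. They summed to 5964761 to 17336918 in 53 libraries (median 11378553). Diet 5 replicate 7, with 755 counts, was not used, which leaves 8 fish with Diet 5 and 9 with each of the others. The livers also held RNA of the exocrine pancreas, seen as 7 markers such as trypsin-2 and pancreatic lipase. These 7 were taken from the study's DEG lists for Diet 2, Diet 5 or both. Their difference from Diet 1 may therefore come from the choice. The mean log2 level of these markers, called the exocrine score here, had a median of 11.42 with Diet 1 (8.05 to 12.07), 10.11 with Diet 2, 9.89 with Diet 3, 9.25 with Diet 4 (2.79 to 10.62), 9.40 with Diet 5 and 8.77 with Diet 6 (1.47 to 10.53). Of 63 marker values with Diet 6, 1 was 0, and none was 0 with the other diets. For the label liver, 8 contigs of proteins that the liver is known to make were read from the same lists of DEGs after the other results were seen. They had counts in all 53 libraries. Among them, in CPM (counts relative to the library total), were complement C5 at 3360 to 10800 (median 7520), haptoglobin-like at 117 to 2020 and hepcidin at 1.15 to 1030. Contigs of those lists were already known to have reads in these livers, so this is a weak check of the label.

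A newly made protein folds with the help of chaperones, which hold it while it is unfolded. In the ER, protein disulfide-isomerases join its cysteines, and DnaJ proteins bring it to the ER chaperone of the HSP70 family. A protein that does not fold, or is no longer needed, is marked with ubiquitin by an E3 ligase and cut up by the 26S proteasome, or it is degraded by cathepsins in the lysosome. The liver makes most plasma proteins and therefore has a large ER, and the exocrine pancreas, which lies within or beside the liver in many fishes, does so too.

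Levels are given as CPM, the count of a contig relative to the TMM-scaled total of its library, and can be compared between fish for 1 contig but not between contigs, whose lengths were not used. Changes are log2 fold changes from edgeR's quasi-likelihood test, with the standard error (SE), and a contig is called when the Benjamini-Hochberg adjusted p over all contigs tested is under 0.05 and the change is more than 1.5-fold. The lists that chose the contigs came from these libraries by the same 5 comparisons with Diet 1, so every value against Diet 1 is a description and carries no p. For a contig, only pairs of test diets outside those it is listed for are a test. Differences between fish of the same diet were not used by the lists either, and are tested last.

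Of the 33 contigs, 23 are listed for Diet 5 (18 of them for Diet 5 alone), 9 for Diet 6, 7 for Diet 2, 1 for Diet 4 and 0 for Diet 3. Against Diet 1, edgeR called 16 with Diet 5, 8 higher and 8 lower, all of them listed for that diet, and 5.2% of all contigs tested were called (2.53% higher and 2.67% lower). With Diet 6 it called 2, both lower, beside 1.14% of all contigs (0.583% higher and 0.562% lower). With Diets 2, 3 and 4 it called 0 of the 33, beside 0.0438%, 0% and 0% of all contigs. At an unadjusted p under 0.05 there were 9, 8 and 8 with these 3 diets, beside 9.39%, 4.99% and 8.09% of all contigs. DESeq2 called 2, 0 and 1 of the 33 with these diets, and 20 and 10 with Diets 5 and 6. Its share over all contigs was not counted. Since the rule used these comparisons, the counts only restate it. The median log2 fold change of the 33 was -0.16, -0.09, -0.15, -0.49 and -0.08 with Diets 2 to 6, and that of all contigs lay between -0.02 and 0.02.

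**Figure D1:**
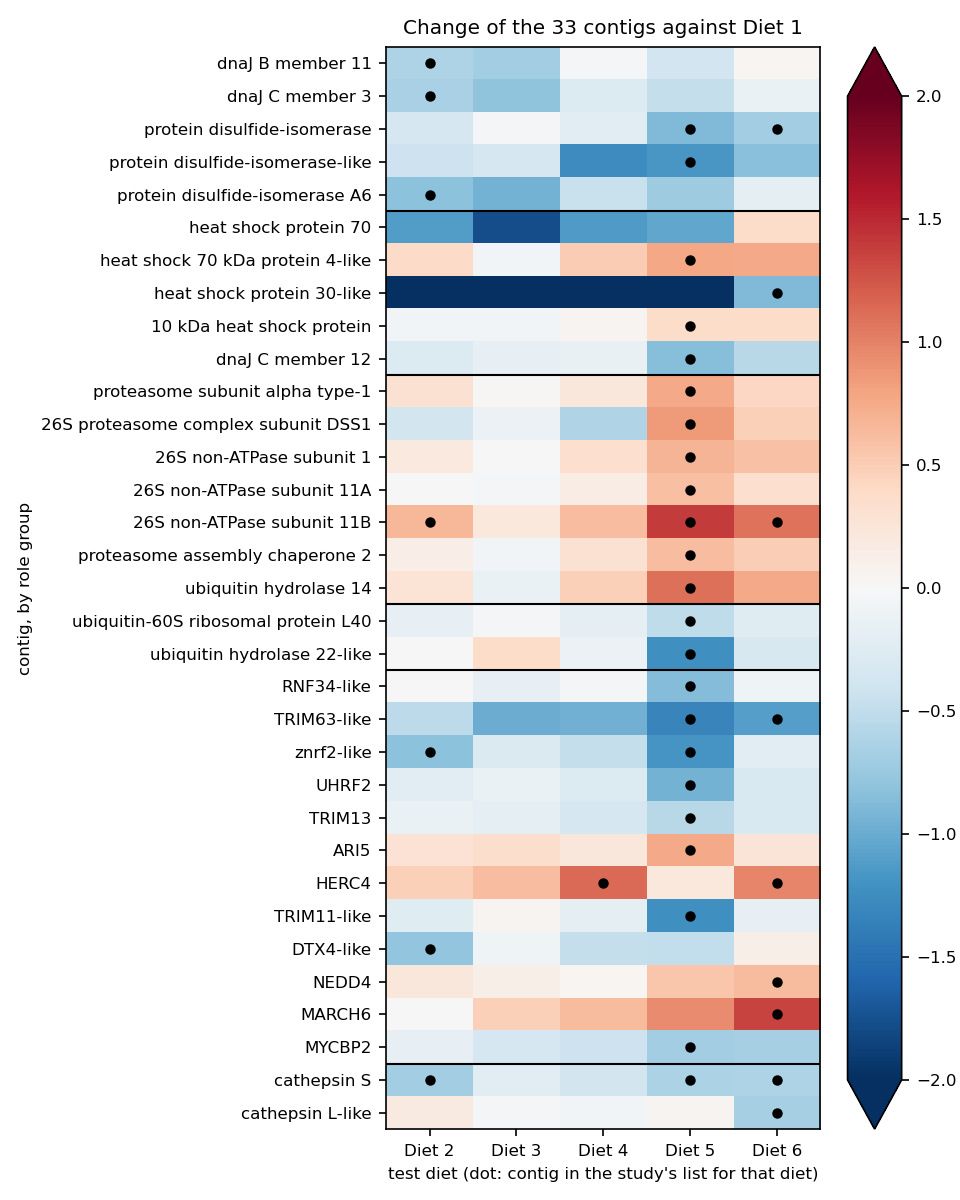
Log2 fold change of each of the 33 contigs (rows, separated by role group) against Diet 1 in each test diet (columns), with red for higher and blue for lower and a dot where the study's list for that diet holds the contig. The 7 proteasome contigs are all red with Diets 5 and 6, the 5 ER contigs are all blue with Diets 2 to 5, and the E3 ligases are mixed.

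All 7 proteasome contigs are listed for Diet 5, and all 7 were higher with it than with Diet 1 (median log2 fold change 0.75). Of these, 6 were called, beside 2.53% of all contigs called higher. Proteasome contigs outside the lists were not looked at, so the shared direction may come from the choice. All 7 were also higher with Diet 6, against the same control fish, with a median of 0.49 and none called. 26S proteasome non-ATPase regulatory subunit 11B, part of the lid of the 19S cap, had the largest change of the group. It was at 4.99, 7.45 and 26.5 CPM (lowest, median and highest fish) with Diet 1, 10.7, 14.4 and 27.2 with Diet 2 and 9.7, 10.7 and 14.8 with Diet 3. It was at 8.12, 13.2 and 38.1 CPM with Diet 4, 12.5, 23.9 and 51.1 with Diet 5 and 10.1, 17.8 and 53.8 with Diet 6. The range of every test diet overlapped with that of Diet 1, and with Diet 6 a single fish at 53.8 CPM lay far above the other 8, which were at 10.1 to 22.3. The log2 fold change was 0.67 with Diet 2 (SE 0.275), 1.40 with Diet 5 (SE 0.317) and 1.08 with Diet 6 (SE 0.331).

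26S proteasome non-ATPase regulatory subunit 1, the large scaffold of the base of the cap, was at 54, 57.5 and 147 CPM with Diet 1 and at 77.1, 112 and 169 with Diet 5 (log2 fold change 0.68, SE 0.198). Ubiquitin carboxyl-terminal hydrolase 14, which sits on the proteasome and trims ubiquitin from its substrates, was at 14.7, 19.6 and 69.8 CPM with Diet 1 and at 29.4, 53.2 and 82.9 with Diet 5 (log2 fold change 1.10, SE 0.288). In both contigs 1 control fish, Diet 1 replicate 7, lay far above the other 8. The remaining called members were proteasome subunit alpha type-1 (log2 fold change 0.75, SE 0.21), of the 20S core, subunit 11A (0.60, SE 0.17), the sister of 11B, and proteasome assembly chaperone 2 (0.62, SE 0.149), which helps to build the ring of alpha subunits. Subunits 11A and 11B are paralogs, and reads that fit both could have been split between them by the counting. 26S proteasome complex subunit DSS1, a small lid protein, was 0.85 higher with an SE of 0.706. Without Diet 1 replicate 7 the log2 fold changes with Diet 5 ranged from 0.74 for subunit 11A and assembly chaperone 2 to 1.74 for subunit 11B and 2.15 for DSS1 (SE 0.572), and all 7 were called. That fish was the highest control in all 7 contigs, so leaving it out raises these changes by itself and tests nothing. The share of all contigs called in that fit was not counted.

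In the ER group the direction was the opposite: all 5 contigs were lower than with Diet 1 with each of Diets 2, 3, 4 and 5, with medians of -0.62, -0.69, -0.27 and -0.71, though 2 of these 20 differences were as small as -0.02 and -0.04. The 20 are not independent. All use the same control fish, and 3 of the 5 contigs went together across fish (r = 0.924 to 0.939, given further on). ER contigs outside the lists were not looked at, so here too the shared direction may come from the choice. Protein disulfide-isomerase was at 980, 1300 and 1570 CPM with Diet 1, at 525, 710 and 780 with Diet 5 and at 565, 817 and 1070 with Diet 6. All 8 fish with Diet 5 were below all 9 with Diet 1, and the share of all contigs that separate in this way was not counted. The log2 fold change was -0.88 with Diet 5 (SE 0.111) and -0.69 with Diet 6 (SE 0.123), and these were the calls in the ER group. With Diets 2, 3 and 4, for which it is not listed, the medians were 888, 1160 and 1130 CPM.

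Protein disulfide-isomerase-like had the largest change of the group with Diet 5, with 1.94, 6.36 and 19.6 CPM with Diet 1 and 1.76, 2.3 and 6.54 with Diet 5 (log2 fold change -1.17, SE 0.411, not called). With Diet 4, for which it is not listed, it was at 0.934, 2.34 and 5.84 CPM (log2 fold change -1.26, not called). The 7 exocrine markers were all lower with Diet 5 too (median log2 fold change -1.56, 2 called). They were chosen from the lists for Diets 2 and 5, so their direction is not independent of the choice. Across fish within diets this contig went with their score (r = 0.56, tested with the other contigs further on). The part of the exocrine RNA in its change was not tested. The other 3 ER contigs are listed for Diet 2 alone. They are dnaJ homolog subfamily B member 11 and dnaJ homolog subfamily C member 3, co-chaperones of the ER, and protein disulfide-isomerase A6. The last of these was at 29.9, 114 and 320 CPM with Diet 1 and at 36.1, 71.2 and 128 with Diet 2, and dnaJ C member 3 at 22.4, 69.1 and 162 and at 25.2, 45.9 and 94.1. Both ranges with Diet 2 lay within those with Diet 1, whose fish spread more widely. The log2 fold changes with Diet 2 were -0.82 (SE 0.337), -0.65 (SE 0.306) and, for dnaJ B member 11, -0.62 (SE 0.257), and none was called.

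**Figure D2:**
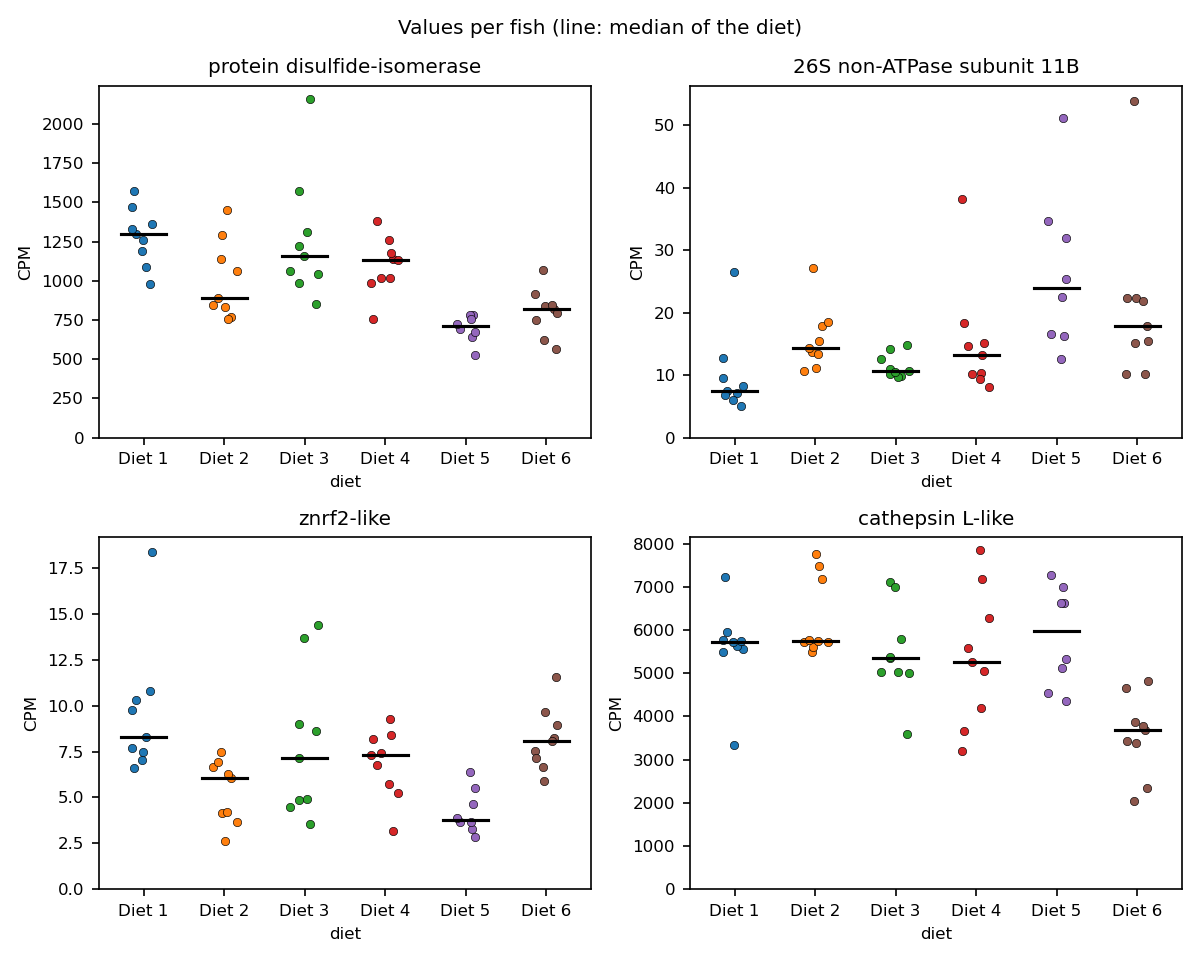
CPM of protein disulfide-isomerase, 26S proteasome non-ATPase regulatory subunit 11B, the E3 ligase znrf2-like and cathepsin L-like in each fish (points) by diet, with the median of each diet as a line. With Diet 5 the disulfide-isomerase and znrf2-like lie below every fish of Diet 1, and subunit 11B has 1 high fish in Diets 1, 4 and 6.

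The 12 E3 ligases did not share a direction: with Diet 5, 4 were higher and 8 lower. Of these, 1 and 5 were called, beside 2.53% of all contigs called higher and 2.67% lower. The called ligases are all listed for that diet, so the counts restate the choice. E3 ligases choose which protein is marked, and each of these acts on other substrates. Znrf2-like, a RING protein of membranes, was at 6.63, 8.31 and 18.4 CPM with Diet 1, 2.63, 6.04 and 7.47 with Diet 2 and 2.84, 3.78 and 6.41 with Diet 5. All fish with Diet 5 were below all fish with Diet 1, and the log2 fold change was -1.18 (SE 0.217). With Diet 2 it was -0.82 (SE 0.218), not called. UHRF2, a nuclear ligase that binds methylated DNA, was likewise below every fish of Diet 1 (3.33, 5.06 and 6.51 against 8.08, 10.2 and 12.5 CPM, log2 fold change -0.94, SE 0.156). The share of all contigs whose fish separate in this way was not counted.

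TRIM63-like, named after a ligase of muscle protein breakdown in mammals, was at 1.42, 2.38 and 3.29 CPM with Diet 1, 0.123, 0.916 and 1.73 with Diet 5 and 0.432, 1.18 and 1.98 with Diet 6. The log2 fold change was -1.32 with Diet 5 (SE 0.372) and -1.10 with Diet 6 (SE 0.296, not called). TRIM63-like had few reads, with a median of 14 counts per library. It was also lower with Diets 3 and 4, for which it is not listed, at -0.99 (SE 0.295) and -0.96 (SE 0.298). The other ligases lower with Diet 5 and listed for it were TRIM11-like (-1.22, SE 0.209), RNF34-like (-0.87, SE 0.252), MYCBP2 (-0.70, SE 0.234, not called) and TRIM13 (-0.55, SE 0.181, not called), which is anchored in the ER membrane.

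HERC4 was the only E3 ligase listed for Diet 4. It was at 5.96, 14.2 and 19.6 CPM with Diet 1, 11.3, 27.6 and 61 with Diet 4 and 10.9, 21.9 and 56 with Diet 6, so that the ranges overlapped. The log2 fold change was 1.13 with Diet 4 (SE 0.305) and 0.98 with Diet 6 (SE 0.292), neither called. MARCH6, a ligase of the ER membrane that marks misfolded proteins, was at 0.243, 0.627 and 1.33 CPM with Diet 1 and at 1.06, 1.59 and 3.64 with Diet 6 (log2 fold change 1.35, SE 0.372, not called). It was also higher with Diets 4 and 5, for which it is not listed, at 0.64 and 0.95, neither called. These are few reads, with a median of 12 counts per library for MARCH6. NEDD4, which marks membrane proteins, was 0.63 higher with Diet 6 (SE 0.178), the ARI5-named contig 0.76 higher with Diet 5 (SE 0.216) and called, and DTX4-like, of a family that acts on Notch, 0.79 lower with Diet 2 on the log2 scale (SE 0.258).

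Ubiquitin itself was followed in ubiquitin-60S ribosomal protein L40, a ubiquitin unit fused to a ribosomal protein. It was at 57, 68.2 and 148 CPM with Diet 1 and at 35.9, 55.4 and 101 with Diet 5 (log2 fold change -0.51, SE 0.209). Other genes also encode ubiquitin units of the same sequence, so its count is uncertain. Ubiquitin carboxyl-terminal hydrolase 22-like, related to an enzyme that takes ubiquitin from histones, was at 0.614, 1.4 and 2.1 CPM with Diet 1 and at 0, 0.614 and 0.986 with Diet 5 (log2 fold change -1.22, SE 0.451). Neither was called, and the ranges of both overlapped. Hydrolase 22-like had few reads, with a median of 13 counts per library.

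The 2 cathepsins, cysteine proteases of the lysosome, differed from each other. Cathepsin L-like was at 3340, 5710 and 7220 CPM with Diet 1, 5500, 5740 and 7750 with Diet 2, 3590, 5350 and 7120 with Diet 3, 3190, 5260 and 7850 with Diet 4 and 4350, 5970 and 7270 with Diet 5. With Diet 6 it was at 2050, 3680 and 4810. Except for Diet 1 replicate 7, the lowest control fish, every fish with Diet 6 was below every fish with Diet 1 (log2 fold change -0.66, SE 0.163). Cathepsin S, known in mammals for cutting the chain that guards MHC class II, was lower with all 5 test diets and is listed for Diets 2, 5 and 6. It was at 17.7, 24.1 and 32.3 CPM with Diet 1, 8.72, 15 and 21.7 with Diet 2, 10, 15.1 and 19 with Diet 5 and 5.53, 17.3 and 21.2 with Diet 6. The log2 fold changes were -0.69 (SE 0.165), -0.64 (SE 0.139) and -0.61 (SE 0.191), of which that with Diet 5 was called, and -0.21 and -0.37 with Diets 3 and 4.

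Among the heat shock and co-chaperone contigs, 3 are listed for Diet 5. Heat shock 70 kDa protein 4-like, of a family that recharges HSP70 with ATP, was at 2.84, 4.38 and 6.65 CPM with Diet 1 and at 4.98, 6.85 and 15.8 with Diet 5 (log2 fold change 0.78, SE 0.229, called). The mitochondrial 10 kDa heat shock protein, the lid of the mitochondrial chaperonin, was at 33.5, 45 and 189 CPM and at 53.2, 79.6 and 98.4 (0.36, SE 0.285, not called), with Diet 1 replicate 7 at 189 and the next control fish at 59.6. DnaJ homolog subfamily C member 12, which in mammals assists the hydroxylases of aromatic amino acids, was 0.85 lower on the log2 scale (SE 0.155, called).

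Heat shock protein 70, the chaperone that cells induce when proteins unfold, is the contig that no list holds. It is shown here by the primer pair of the study's RT-qPCR, since no sequence of the contig was at hand. The letters are those of the study's primer table. The table heads the forward column from 3′ to 5′, and without a reference neither the sense nor the match of the primers was checked.
heat shock protein 70 forward: gacgagaacctgaagggcaa
heat shock protein 70 reverse: acagctaccagtgggcattc

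Heat shock protein 70 was at 0, 0.623 and 9.23 CPM with Diet 1, 0.194, 0.702 and 1.35 with Diet 2 and 0, 0.534 and 0.881 with Diet 3. It was at 0, 0.834 and 1.34 CPM with Diet 4, 0.42, 0.697 and 1.53 with Diet 5 and 0.996, 2.06 and 4.16 with Diet 6. All 9 fish with Diet 6 were above all 9 with Diet 3, and the median with Diet 6 was above every fish of Diets 2 to 5. For all contigs, the share with such a separation was not counted. These are few reads, 0 to 86 counts per library with a median of 8, and a count of 0 allows up to 3 counts, or 0.224 to 0.367 CPM in the 4 libraries at 0.

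With Diet 1, replicates 3 and 7 were at 9.23 and 2.97 CPM and the other 7 fish at 0 to 0.884. The log2 fold change of Diet 6 against Diet 1 was 0.37 (SE 0.691) with all fish, 0.51 without replicate 7 and 1.52 (SE 0.6) without replicate 3, an alternative added after the data were seen. DESeq2, whose default settings can replace a count far from the rest, gave 1.39, and a fit blocked on the replicate number 1.55. With Diet 5 against Diet 1 the contig was lower with all fish and not called. Without replicate 3 that log2 fold change was 0.09 (SE 0.679). The study reports this contig as higher with the all-plant diet both by RNA-seq, fitted with DESeq2, and by RT-qPCR of the same livers. The unblocked edgeR fit with all fish had the opposite direction. That direction was lost without that control fish. It was also lost with all fish when the fit was blocked on the replicate number, as given further on. The opposite direction is therefore not firm. Heat shock protein 30-like, a small heat shock protein, had the same fish apart. It was at 22.7 CPM in Diet 1 replicate 3 and at 0 to 1.53 in the other control fish, and at 0.555, 1.43 and 3.55 with Diet 6, the diet it is listed for. Its log2 fold change with Diet 6 was -0.89 (SE 0.849) with that fish and 1.70 (SE 0.545) without it, so 1 fish set the sign. DESeq2 gave 1.57, and edgeR blocked on the replicate number 1.19. Whether DESeq2 replaced the counts of Diet 1 replicate 3 was not checked for either contig, so its values may not rest on all fish as counted.

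**Figure D3:**
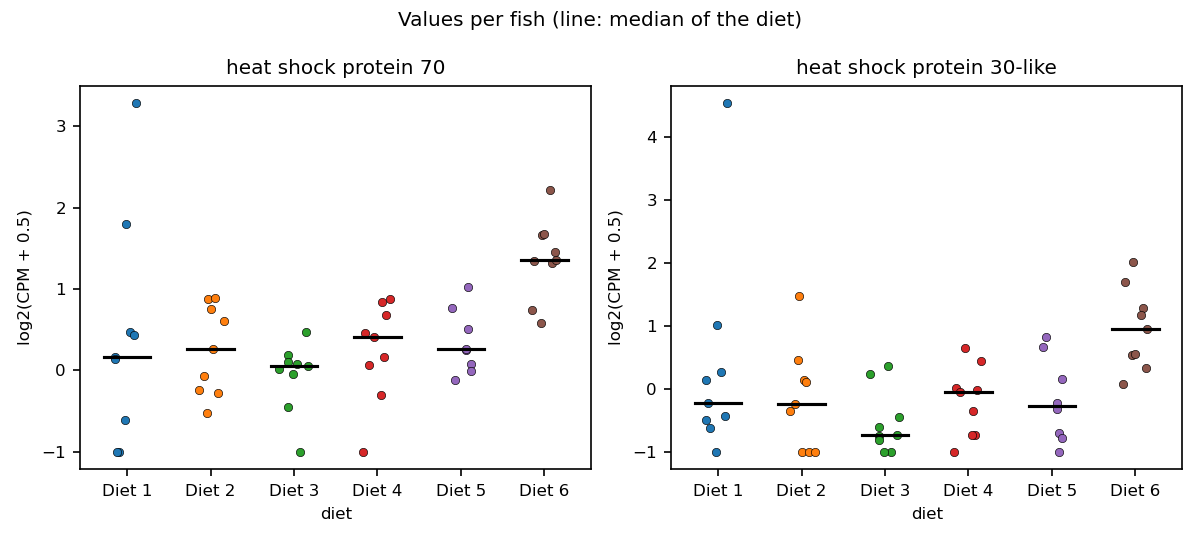
Level of heat shock protein 70 (left) and heat shock protein 30-like (right) in each fish, as log2 of CPM plus 0.5, by diet, with the median of each diet as a line. Diet 6 has the highest median in both, and Diet 1 replicate 3 is the highest point of both. Fish of Diets 1, 2, 4 and 5 lie within the range of Diet 6 in heat shock protein 70, and fish of all other diets do in 30-like. Diet 1 replicate 7 and Diet 2 replicate 4 are among them.

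The lists did not compare test diets with each other, so each contig was tested in pairs of test diets outside those it is listed for. Contigs listed for either diet of a pair are thereby left out, while the shares over all contigs leave out none. A low count beside such a share can therefore come from the choice. The contigs that remained and passed the filter of a mean count of at least 5 numbered 25 for Diet 3 against Diet 2. They numbered 25 for Diet 4 against Diet 2 and 31 for Diet 4 against Diet 3, and edgeR called 0 in each. Of all contigs, 0.043%, 0.0214% and 0% were called. An unadjusted p under 0.05 was found in 1, 0 and 6 of these members, beside 6.87%, 8.09% and 4.75% of all contigs. For Diet 5 against Diets 2, 3 and 4, 5, 8 and 8 contigs could be tested and 0 were called, beside 1.37%, 4.05% and 1.77% of all contigs. In each, 1 had an unadjusted p under 0.05, beside 17.1%, 22.5% and 16.1% of all contigs. For Diet 6 against Diet 4 and Diet 5, 24 and 4 could be tested and 0 were called, beside 0.211% and 2.6%. Here 2 and 1 had an unadjusted p under 0.05, beside 9.22% and 15.6% of all contigs. DESeq2 called 0 in each of these pairs as well. For Diet 6 against Diet 2, 1 of 19 was called (2.0% of all contigs), and for Diet 6 against Diet 3, 1 of 24 (0.493% of all contigs), and in both it was heat shock protein 70.

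Heat shock protein 70 was higher with Diet 6 than with Diet 3 by a log2 fold change of 2.15 (SE 0.393, edgeR adjusted p = 0.0259) and than with Diet 2 by 1.53 (SE 0.388, adjusted p = 0.0378). Against Diet 4 the log2 fold change was 1.52 (SE 0.427, adjusted p = 0.194). The contig was treated as chosen on Diet 5, but the study's text also takes up this gene for Diet 2. The RT-qPCR for which it was added used the same livers. Its fold change against Diet 1 was highest with Diet 6 and lowest with Diet 3, so neither comparison is independent of the choice. The call against Diet 3 was lost without Diet 6 replicate 9 (edgeR adjusted p = 0.06, log2 fold change 1.98) and kept without each of the other 17 fish. That against Diet 2 was lost in 12 of 18 such fits (adjusted p up to 0.0873). DESeq2 gave 1.55 against Diet 2 (adjusted p = 0.00269) and 2.17 against Diet 3, where its own filter on low counts left the contig without an adjusted p, so that it counts as 0 called there. When the counts of the 3 fish that share a T tag of the labels were summed, 3 sums per diet, neither comparison passed (edgeR adjusted p = 0.312 against Diet 3 and 0.231 against Diet 2, log2 fold change 2.09 and 1.49). What the T tag stands for is not given, and each diet has 3 of them. Both calls were also lost in fits blocked on the replicate number (adjusted p = 0.108 and 0.0605), and that against Diet 2 without the filter on low counts (0.0663), in 1 fit of 53 libraries (0.149) and with the exocrine score as a covariate (0.0664). The exocrine score, lower with Diet 6, had an r of 0.0694 with this contig across fish within diets (rho 0.0814, permutation p = 0.58 and 0.54, adjusted p = 0.645 and 0.785, n = 53, 0.127 without the 2 farthest fish).

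At an unadjusted p under 0.05, Diet 6 differed from Diet 3 in 9 of the 24 contigs, all higher with Diet 6, and 13.6% of all contigs had such a p. After heat shock protein 70 came proteasome assembly chaperone 2 (log2 fold change 0.55, SE 0.174, adjusted p = 0.157), dnaJ B member 11 (0.73, SE 0.242, adjusted p = 0.177) and ubiquitin carboxyl-terminal hydrolase 14 (0.88, SE 0.311, adjusted p = 0.206). None of these passed, nor did NEDD4 between Diet 5 and Diet 4 (0.54, SE 0.188, adjusted p = 0.141). Assembly chaperone 2, dnaJ B member 11 and hydrolase 14 were highest within Diet 6 in the same fish, replicate 6 (79, 55.1 and 143 CPM). Several of the contigs also move together across fish, as given further on, so the 9 are not separate observations. Over the 24 contigs the median log2 fold change of Diet 6 against Diet 3 was 0.29, with 15 higher, and over all contigs it was 0.01.

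Fish of the same diet differ too, and their differences showed which of the contigs move together. For this, each diet's mean was taken from the log2 CPM and the remainder was correlated over 53 fish, for 43 pairs within the role groups, with 100000 permutations within diets (smallest p they can give 1e-05) and adjustment over the 43. The values of a pair share the library and its scaling. By r, 23 pairs passed at an adjusted p under 0.05, and 20 of them also by rho.

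DnaJ B member 11, dnaJ C member 3 and protein disulfide-isomerase A6 went together almost fish by fish. The r was 0.935 for the 2 dnaJ contigs, 0.924 for dnaJ B member 11 with disulfide-isomerase A6 and 0.939 for dnaJ C member 3 with disulfide-isomerase A6 (rho 0.919 to 0.937, permutation p = 1e-05 and adjusted p = 3.07e-05 for each r, n = 53). Without the 2 farthest fish r was 0.916 to 0.922. Within single diets the 3 pairs had r of 0.821 to 0.985, and among fish that share 1 of the 3 L tags in their labels, whose meaning is not given, 0.879 to 0.958. In 43 of 53 fish all 3 contigs lay on the same side of their diet's mean. Among 9547 other contigs that averaged 5 counts or more, disulfide-isomerase A6 was the partner with the highest r for dnaJ C member 3, and the reverse held as well. The median r of dnaJ C member 3 with all of them was -0.0278, and 2.7% had an r over 0.5.

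Protein disulfide-isomerase, the ER contig called with Diets 5 and 6, did not pass with any of the 3. Its r was 0.0173 with dnaJ B member 11, 0.174 with dnaJ C member 3 and 0.0222 with disulfide-isomerase A6 (rho 0.0606, 0.149 and 0.0349, permutation p from 0.225 to 0.908 for r, adjusted p 0.322 to 0.908, n = 53). It ranked 1978th of the 9547 as a partner of dnaJ C member 3. Protein disulfide-isomerase-like was the one contig of the 33 that followed the exocrine score (r = 0.56, rho 0.563, permutation p = 0.00018 and 3e-05, adjusted p over the 33 = 0.00594 and 0.00099, 0.551 without the 2 farthest fish, n = 53). The 3 linked ER contigs had r of 0.0781 to 0.168 with the score (adjusted p 0.474 to 0.645, permutation), and within the L tags disulfide-isomerase-like had 0.498 to 0.648. With dnaJ C member 3 and disulfide-isomerase A6, disulfide-isomerase-like passed by r (0.355 and 0.387, adjusted p = 0.0355 and 0.0226, permutation) but not by rho (0.258 and 0.273, adjusted p = 0.14 and 0.12).

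**Figure D4:**
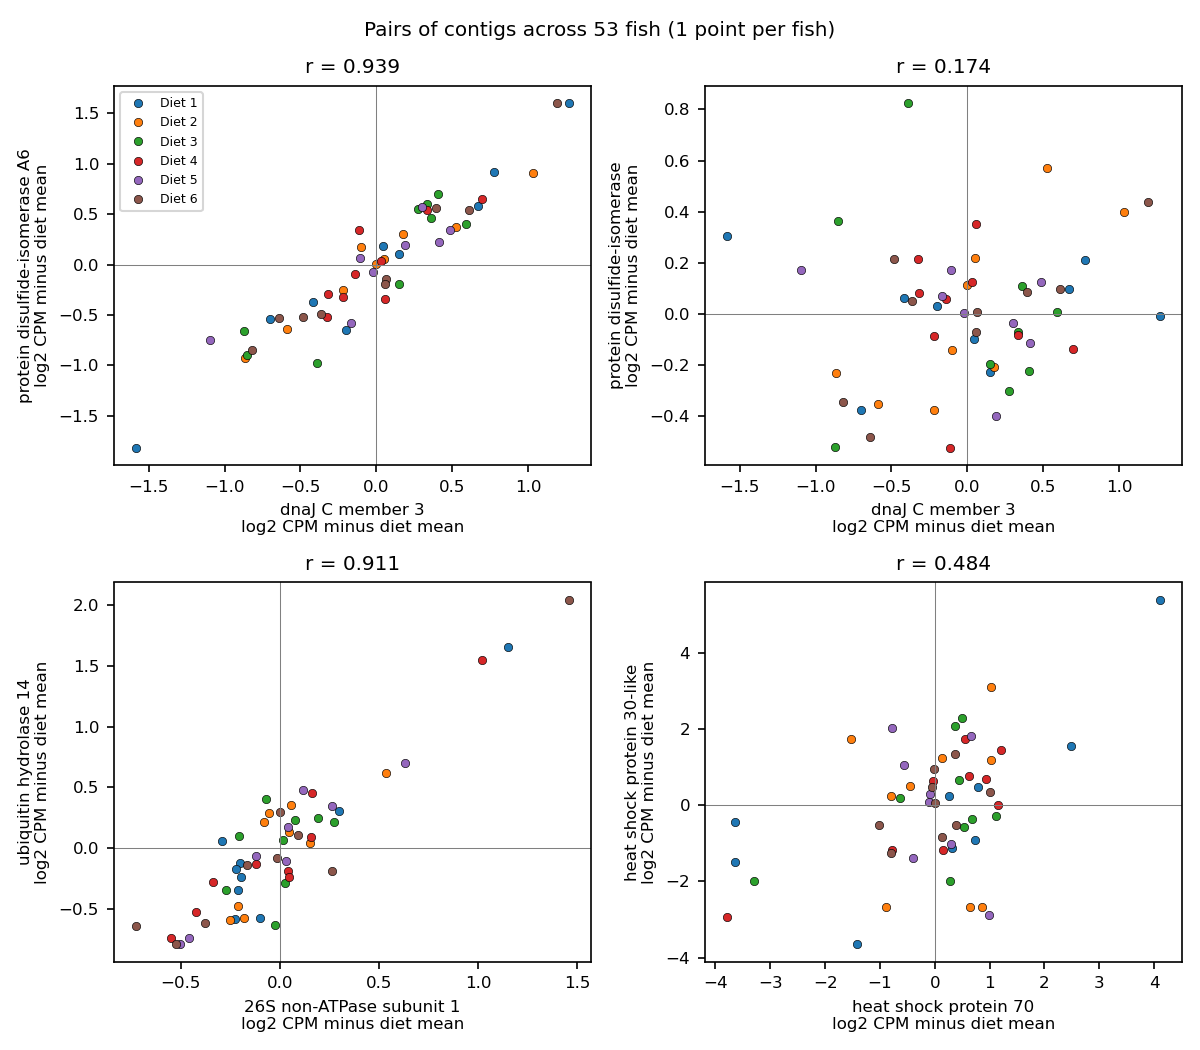
Log2 CPM minus the diet's mean for 4 pairs of contigs, 1 point per fish and 1 colour per diet, over 53 fish. DnaJ C member 3 and disulfide-isomerase A6 fall on a line (r = 0.939), dnaJ C member 3 and disulfide-isomerase do not (0.174), and proteasome subunit 1 and ubiquitin hydrolase 14 have 3 fish far to the upper right (0.911). Heat shock proteins 70 and 30-like (0.484) share 1 extreme high fish, and Diet 3 replicate 1 and Diet 4 replicate 2, with a count of 0 in both, lie low in both.

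The second linked set was the proteasome. Proteasome subunit alpha type-1, non-ATPase subunits 1, 11A and 11B, assembly chaperone 2 and ubiquitin hydrolase 14 formed 15 pairs, and all 15 passed, with r from 0.507 to 0.911 (median 0.803, rho 0.352 to 0.815). The highest was between non-ATPase subunit 1 and ubiquitin hydrolase 14 (r = 0.911, rho 0.809, permutation p = 1e-05 for both, adjusted p = 3.07e-05 for r, n = 53, 0.846 without the 2 farthest fish), and subunit 1 was the contig with the highest r for ubiquitin hydrolase 14 among the 9547, while hydrolase 14 ranked 4th for subunit 1. Of all contigs, 6.75% had an r over 0.5 with subunit 1 and 6.56% with hydrolase 14. DSS1 passed with none of the 6 (r = 0.0435 to 0.31), and it had a median of 15 counts per library.

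A few fish carried part of this. Diet 1 replicate 7, Diet 4 replicate 2, Diet 5 replicate 3 and Diet 6 replicate 6 had all 6 contigs above their diet's mean, by 0.74 to 1.66, 0.43 to 1.55, 0.32 to 1.09 and 0.91 to 2.04 on the log2 scale. Diet 2 replicate 4 also had all 6 above, by 0.16 to 0.98 and was not among those left out next. In 17 of 53 fish all 6 lay on the same side of their diet's mean. In the 4 fish named first, non-ATPase subunit 1 was at 147, 169, 169 and 261 CPM, and their library totals were 9742151, 7191199, 10219047 and 15753583. Without these 4 fish, an alternative added after the data were seen, 11 of the 15 pairs passed, r was 0.222 to 0.809 (median 0.527), and that of subunit 1 with ubiquitin hydrolase 14 was 0.754. The 4 that no longer passed were those of assembly chaperone 2 with alpha type-1, subunit 11B and ubiquitin hydrolase 14, and that of alpha type-1 with subunit 11A. Within diets the median r of the 15 pairs was 0.823, 0.542, 0.369, 0.899, 0.753 and 0.919 with Diets 1 to 6, and within L tags 0.683 to 0.82. Single pairs went as low as 0.137 with Diet 2, -0.232 with Diet 3 and -0.0439 with Diet 5.

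Of the other pairs within role groups, the mitochondrial 10 kDa heat shock protein and heat shock 70 kDa protein 4-like had an r of 0.527 (rho 0.537, permutation p = 2e-05 and 0.00013, adjusted p = 5.73e-05 and 0.000373, n = 53, 0.424 without the 2 farthest fish, 0.408 to 0.715 within L tags). Heat shock proteins 70 and 30-like had an r of 0.484 (rho 0.342, permutation p = 0.00195 and 0.0188, adjusted p = 0.00419 and 0.0404, n = 53, 0.423 without the 2 farthest fish, 0.468 to 0.675 within L tags). Without Diet 1 replicate 3 it was 0.352 (rho 0.308, adjusted p = 0.0279 and 0.0736 by permutation), so that rho no longer passed. Diet 3 replicate 1 and Diet 4 replicate 2 had a count of 0 in both contigs, and the part of these zeros in r was not tested. The mitochondrial 10 kDa heat shock protein and dnaJ C member 12 had the one negative r that passed, -0.451 (rho -0.295, permutation p = 0.00253 and 0.0466, adjusted p = 0.00518 and 0.0955, n = 53, -0.305 without the 2 farthest fish). It no longer passed without Diet 1 replicate 7 (r = -0.381, adjusted p = 0.0514 by permutation). The 2 cathepsins had an r of -0.0479 (rho -0.0876, permutation p = 0.762 and 0.548) and the L40 fusion and hydrolase 22-like -0.158 (rho 0.00137, permutation p = 0.266 and 0.993).

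The remaining 485 pairs of the 33 contigs were correlated after the data were seen, with adjustment over the 485, and 91 were past the threshold by r, 51 positive and 40 negative. All 18 pairs between the 3 linked ER contigs and the 6 linked proteasome contigs were positive and passed (r = 0.439 to 0.676, largest adjusted p by permutation 0.0193), and 16 of them also passed by rho. Without the 4 high fish these r were 0.215 to 0.558, and within the L tags 0.304 to 0.827. Heat shock 70 kDa protein 4-like and the mitochondrial 10 kDa heat shock protein were each past the threshold with all 6 proteasome contigs (r = 0.524 to 0.692 and 0.534 to 0.741). DnaJ C member 12 went the other way with all 6 (r = -0.649 to -0.503), as did TRIM11-like (-0.513 to -0.421) and TRIM13 (-0.519 to -0.396). Cathepsin L-like did so with 5 of the 6 (r = -0.604 to -0.353 over the 6). By both r and rho, TRIM11-like, TRIM13 and cathepsin L-like each passed with 4 of the 6. Without the 4 high fish the r with the 6 were -0.512 to -0.241 for dnaJ C member 12, -0.448 to -0.277 for TRIM11-like and -0.449 to -0.0794 for cathepsin L-like. They were 0.237 to 0.568 for the 10 kDa protein and 0.287 to 0.423 for heat shock 70 kDa protein 4-like. Heat shock proteins 70 and 30-like, protein disulfide-isomerase and cathepsin S passed with none of the 6.

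**Figure D5:**
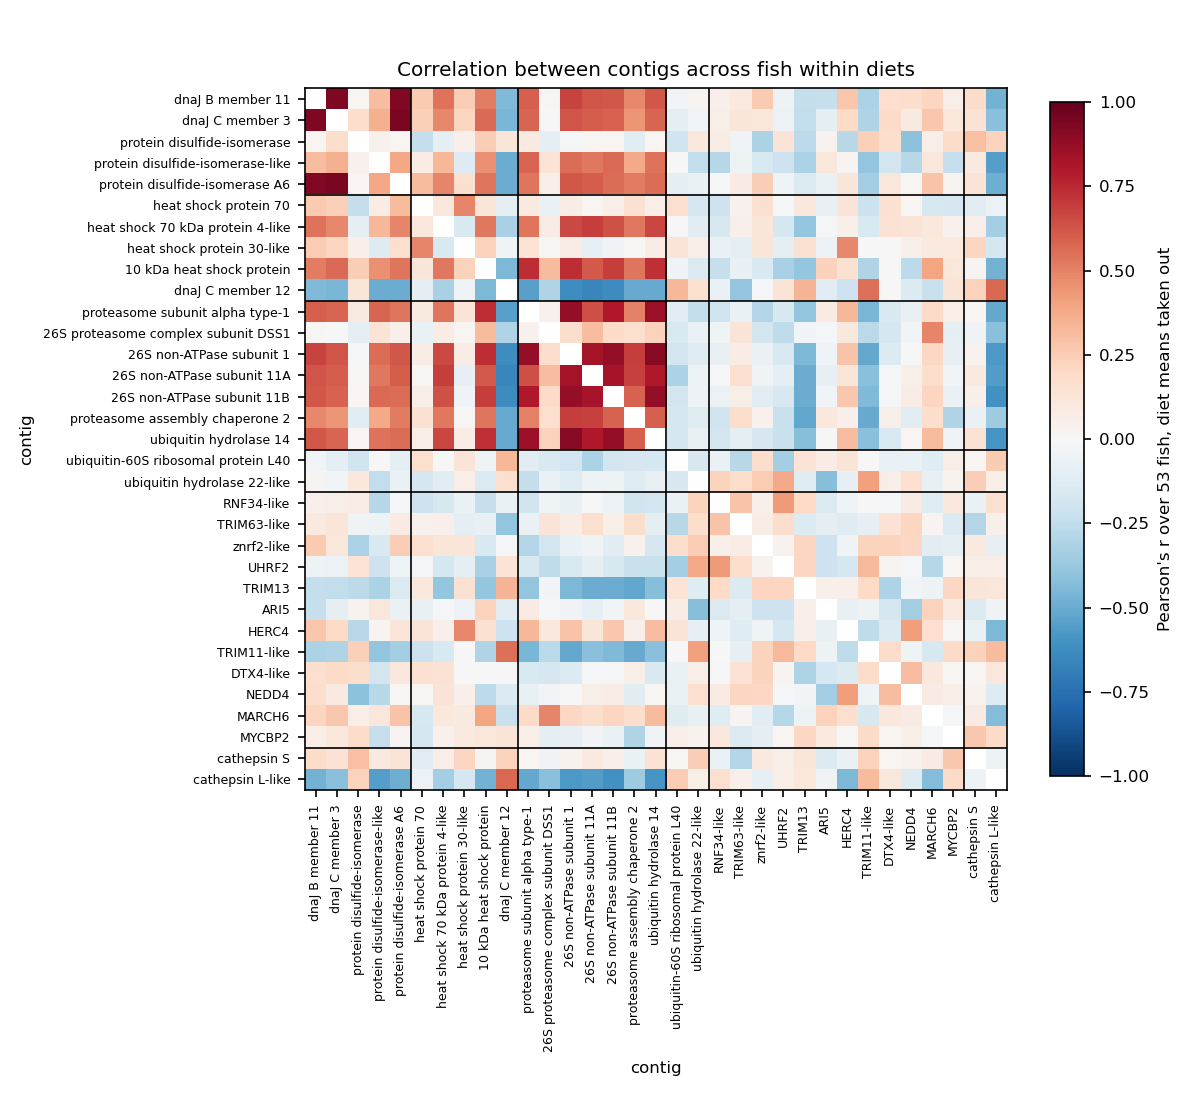
Pearson's r between the 33 contigs over 53 fish, computed on levels centred by diet, ordered by role group (lines), with red for positive and blue for negative. The red blocks are the 3 ER contigs (0.924 to 0.939), the 6 proteasome contigs (0.507 to 0.911) and the cells between them (0.439 to 0.676), and dnaJ C member 12 and cathepsin L-like run across them in blue.

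Other genes of these pathways were read from 4 short lists, which were drawn from the same DEG lists and so give no independent direction. With Diet 5, where 2.53% of all contigs were called higher and 2.67% lower, 4 of 4 subunits of mitochondrial import were called higher than with Diet 1 (median log2 fold change 0.75), as were 5 of 5 contigs of the lysosome and its cystatins (0.99) and 3 of 6 ubiquitin pathway contigs with other names. Of 8 contigs of ER entry and quality control, 7 could be tested, and all 7 were lower and 3 of them called (median -0.76). Within diets, where the lists did not look, 22 of these contigs were paired with 1 member each. The mitochondrial 10 kDa heat shock protein went with 3 of the 4 import subunits, Tim8 B (r = 0.688, rho 0.675, adjusted p = 0.00011 for both, permutation), Tim13 (0.716, rho 0.606, adjusted p = 0.000147 for both) and Tim10 (0.441, rho 0.545, adjusted p = 0.00537 and 0.000605). Proteasome non-ATPase subunit 1 went with RING finger protein 148-like (r = 0.846, rho 0.659, adjusted p = 0.00011 for both, permutation) and with the catalytic subunit of the NEDD8-activating enzyme (0.645, rho 0.462, adjusted p = 0.00088 and 0.00581). DnaJ C member 3 passed by r with 4 of the 7 ER contigs, Sec61 beta (0.407), translocon-associated protein delta (0.403), FKBP11 (0.421) and TANGO1 (0.372, adjusted p = 0.0115 for each, permutation), and of these Sec61 beta and TANGO1 also passed by rho (0.385 and 0.416, adjusted p = 0.0224 and 0.0105). It had an r of -0.0463 with signal recognition particle 54, -0.154 with calnexin-like and -0.12 with IRE1, a sensor of unfolded protein in the ER (adjusted p = 0.747, 0.368 and 0.481, permutation). Cathepsin S passed with 0 of the 5 lysosome and cystatin contigs (r = -0.238 to 0.209).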

How the data were processed

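The deposited values are estimated counts per contig, which the authors made with Trim Galore 0.6.5, cutadapt 2.7, Bowtie2 2.3.4.1 and eXpress 1.5.1 per the labels' processing notes, against a curated transcriptome, as whole numbers with no scaling between libraries. The authors then ran DESeq2 1.24.0. Here the counts were used as deposited. Each pair of diets was fitted in edgeR 4.0.16 (R 4.3.3) with TMM on contigs that averaged 5 counts or more over the libraries of the fit, and p-values were adjusted over all contigs tested. CPM and log2 CPM (prior count 0.5) used TMM factors over 53 libraries. The fits and correlations were tested on simulated data. The members, the lists and the lists' partners were chosen with earlier results of these data known. All 33 contigs are named, and values over fish are given for heat shock protein 70, contigs listed for several diets, contigs called outside their listed diets, and, per role group, the contig with the largest listed change and the pair with the highest r. UHRF2 and its values were chosen after they were seen. Fish were taken as replicates, though 3 share a tank, so p-values do not measure the spread between tanks. Limits for a count of 0 cover counting error only. Alternatives were DESeq2 1.42.0, its size factors, no filter, 1 fit of 53 libraries, a replicate block, counts summed per T tag, the near-empty library kept, the exocrine score as a covariate, no fold threshold and leaving out fish.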

Additional observations from a re-analysis of the deposited data

Results flagged for a closer look

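Dixon's test at 95% was run on log2 CPM in 114 groups of 8 or 9 fish, 19 contigs in 6 diets. It set 18 values in 12 fish apart from the rest of their diet, where chance sets apart about 1 in 20 groups. Of these 18 values, 9 belong to 3 of the fish with high proteasome contigs. In Diet 1 replicate 7, 26S proteasome non-ATPase regulatory subunit 1 was at 147 CPM (other control fish 54 to 81.3), ubiquitin carboxyl-terminal hydrolase 14 at 69.8 (14.7 to 27.4), the mitochondrial 10 kDa heat shock protein at 189 (33.5 to 59.6) and cathepsin L-like, low, at 3340 (5490 to 7220). In Diet 6 replicate 6, subunit 1 was at 261 CPM (57.1 to 114), subunit 11B at 53.8 (10.1 to 22.3) and hydrolase 14 at 143 (20.1 to 42.5). In Diet 4 replicate 2, subunit 1 was at 169 CPM (56.9 to 93.2), while heat shock protein 70 was at 0 (0.308 to 1.34).

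The other fish stood apart in 1 contig each. High values were heat shock 70 kDa protein 4-like at 15.8 CPM in Diet 5 replicate 3 (others 4.98 to 8.52) and znrf2-like at 18.4 in Diet 1 replicate 3 (6.63 to 10.8), the fish that is also highest in heat shock proteins 70 and 30-like. Low values were dnaJ C member 3 at 25.1 CPM in Diet 5 replicate 6 (47.9 to 75.2), HERC4 at 6.57 in Diet 2 replicate 3 (14.5 to 26.6) and cathepsin S at 5.53 in Diet 6 replicate 7 (11.1 to 21.2). Ubiquitin carboxyl-terminal hydrolase 22-like was at 0.17 CPM in Diet 2 replicate 7 (0.716 to 2.51) and at 0 in Diet 5 replicate 9 (0.408 to 0.986). Heat shock protein 70 was at 0 in Diet 3 replicate 1 (0.231 to 0.881) and MARCH6 at 0 in Diet 4 replicate 3 (0.41 to 2.43). A count of 0 allows up to 3 counts, which is 0.37, 0.367 and 0.311 CPM in these 3 libraries and 0.365 in Diet 4 replicate 2. On the log2 scale the place of a 0 is set by the prior count. For heat shock protein 70 both limits lie above the lowest other fish of the diet, so its values of 0 are not shown to be apart. The causes of these values were not tested.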

How the results depend on the processing

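Against Diet 1, the number of the 33 contigs called with Diet 5 stayed within 11 (counts summed per T tag) and 20 (DESeq2) of the 16. With Diet 6, where edgeR called 2, it was 10 with DESeq2, 7 in 1 fit of 53 libraries, 5 with the exocrine score as a covariate, 1 without the filter on low counts, 1 with the replicate block, 0 with T tag sums, and 1 and 4 without Diet 1 replicates 3 and 7. With Diet 2 it was 2 with DESeq2 and 1 without Diet 1 replicate 7 in place of 0, and with Diet 4 it was 1 with DESeq2 in place of 0. The share of all contigs called was not counted under these alternatives. A higher or lower count may thus hold for contigs in general. Between test diets, the 1 contig called in Diet 6 against Diet 2 became 0 without the filter, in 1 fit of 53 libraries, with the replicate block and with T tag sums, and 0 to 1 with each fish left out. With the exocrine score as a covariate heat shock protein 70 was lost (adjusted p = 0.0664) and MYCBP2 called in its place (log2 fold change -0.78, adjusted p = 0.0181, edgeR). In Diet 6 against Diet 3 the 1 became 0 with the block and with T tag sums, and 0 to 1 with each fish left out. Heat shock protein 70 kept its direction in all of these, with adjusted p from 0.01 to 0.312 in edgeR. The pairs of contigs that passed numbered 18 to 26 beside 23, and those with the exocrine score 3 with library totals and 4 with T tag means beside 1. Signs also changed among values that were not called. Heat shock protein 30-like with Diet 6 against Diet 1 went from -0.89 to 1.70 without Diet 1 replicate 3, 1.57 with DESeq2 and 1.19 with the replicate block, and heat shock protein 70 with Diet 5 against Diet 1 from -1.04 to 0.09 without that fish and 0.43 with the block. Without that fish the latter contig also went to 0.02 with Diet 4 against Diet 1. Where no cause is named, the cause was not tested.

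The replicate numbers are not stated to pair fish across diets. Of 130 pairs of fish with the same number, 57 had deviations with an r over 0.1 (median 0.0692, -0.349 to 0.493). In 33 of the 130 pairs, the fish of the same number had the highest r in its diet with the fish compared. With 9 fish per diet, about 1 in 9 would do so without regard to number. Fish of the same number were thus alike more often than that, and the cause was not tested. With the number as a block, 18 contigs were called with Diet 5 and 1 with Diet 6 against Diet 1, and heat shock protein 70 had an adjusted p of 0.108 against Diet 3 and 0.0605 against Diet 2.

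Heat shock proteins 70 and 30-like had medians of 8 and 5 counts per library, so their values in single fish are imprecise.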
